A study of Mus musculus with 6 samples.

Results

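The genes described here are the 300 most counted long noncoding RNAs (lncRNAs) of RAW264.7 macrophages with or without knockdown of Trem2, a lipid-sensing surface receptor of macrophages. They were chosen from the 11124 gene symbols that the deposited annotation types as lncRNA. Of these, 447 reached a mean of 50 counts over the 6 libraries, and the 300 with the highest mean were kept. The choice used the mean over all libraries and neither group alone. RAW264.7 is an established mouse macrophage line derived from a tumour induced by Abelson murine leukaemia virus. The cells carried a control hairpin (shNC, 3 libraries) or a hairpin against Trem2 (shTrem2, 3 libraries), delivered by lentivirus. Hairpin 1 and hairpin 2 against Trem2 are described in the methods, and the labels do not say which of them these libraries carried, so a change cannot be told apart from an effect of the hairpin itself. Both groups were exposed to 20 ng/mL of IL-4 over 24 hours and then fed debris of TCMK-1 mouse kidney tubular cells for another 24 hours, so every library comes from IL-4-treated, debris-fed cells and no untreated culture is compared. Neither the labels nor the methods say that the 3 libraries of a group came from separately transduced cells, and p-values then measure only the spread between these libraries.

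lncRNAs are transcripts without a long conserved reading frame. Some stay in the nucleus and build bodies such as paraspeckles or hold chromatin, others host small RNAs in their introns, and many start beside or overlap a protein-coding gene. Host transcripts carry small nucleolar RNAs (snoRNAs), which guide the modification of ribosomal RNA, or microRNAs (miRNAs), which repress mRNAs through a short seed. Libraries made by poly(A) selection, as here, hold lncRNAs that end in a poly(A) tail or an encoded A-rich stretch.

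Trem2 was measured at 114, 122 and 144 CPM, counts scaled to library size, in the 3 shNC libraries in replicate order. The 3 shTrem2 libraries had 64.7, 63.2 and 80.2 CPM. Values per library are given in this order throughout, and values after ± are SDs over the 3 libraries of a group unless an SE is named. The groups did not overlap, and Trem2 was lower in shTrem2 (log2 fold change -0.87 ± 0.09 SE, adjusted p = 3.39e-06). Libraries held between 15876061 and 19655158 counts with a gene symbol, and all 3 shTrem2 libraries were deeper than the shNC libraries. Of 10 macrophage markers, 9 exceeded 3 counts in every library and Mertk did not. By the rule for calls given below, Lyz2, Fcgr1 and Csf1r were higher (log2 fold changes 1.39, 0.85 and 0.76) and Itgam was lower (-0.78), while Adgre1, at -0.56, and Tyrobp, Spi1, Cd68 and Laptm5, at 0.57, 0.47, 0.12 and 0.04, were not called. The summed level of the markers, in CPM of library totals without TMM scaling, was 5744 to 6661 in shNC and 10636 to 11748 in shTrem2, and without Lyz2 it was 3186 to 3439 in shNC and 3885 to 4008 in shTrem2. Of 14 tubular epithelial markers, 9 were at 0 in all 6 libraries, the highest single count was 8 (Lrp2), and the sums on the same scale were 0.337 to 0.608 in shNC and 0.254 to 0.310 in shTrem2. Depth and group cannot be told apart in this design, and the part that the macrophage marker level had in the results was not tested.

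The 3 divergent lncRNAs among the 30 largest changes whose starts lie within 300 nt of a tested coding gene's start are shown with their promoters, because the neighbouring start lies on the opposite strand inside or next to the same window. The windows run from 250 bases before the RefSeq start to 50 bases from it, in RefSeq build GRCm38.p6, and each is read on the strand of the lncRNA, which is the minus strand for all of them. They cover chr12:116405112-116405411 for D430020J02Rik, beside Ncapg2, chr13:72628515-72628814 for Gm20554, beside Irx2, and chr12:33147537-33147836 for F730043M19Rik, beside Atxn7l1. Capitals mark the matches to 4 searched motifs on either strand: CCAAT (the CCAAT box), TATAAA (the TATA box), CACGTG (an E-box) and TGANTCA (the AP-1 type site). No searched motif contains another.
D430020J02Rik: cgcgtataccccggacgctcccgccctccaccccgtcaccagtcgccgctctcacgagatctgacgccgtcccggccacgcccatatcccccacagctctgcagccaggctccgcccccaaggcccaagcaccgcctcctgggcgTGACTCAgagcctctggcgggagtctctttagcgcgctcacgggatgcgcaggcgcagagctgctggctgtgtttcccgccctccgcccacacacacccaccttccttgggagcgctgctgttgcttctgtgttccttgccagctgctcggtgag
Gm20554: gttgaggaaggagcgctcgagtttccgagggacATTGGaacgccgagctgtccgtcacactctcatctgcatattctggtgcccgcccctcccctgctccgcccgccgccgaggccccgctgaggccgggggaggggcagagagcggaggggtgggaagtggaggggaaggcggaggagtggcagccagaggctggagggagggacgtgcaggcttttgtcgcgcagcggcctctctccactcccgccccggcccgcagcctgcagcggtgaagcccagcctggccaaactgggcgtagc
F730043M19Rik: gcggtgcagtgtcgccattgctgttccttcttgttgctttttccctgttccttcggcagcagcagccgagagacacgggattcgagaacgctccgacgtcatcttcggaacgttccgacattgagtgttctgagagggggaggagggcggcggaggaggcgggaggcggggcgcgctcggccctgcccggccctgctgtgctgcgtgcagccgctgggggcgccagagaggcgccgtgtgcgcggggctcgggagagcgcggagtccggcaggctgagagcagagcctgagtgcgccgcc
D430020J02Rik had the letters TGACTCA, a form of TGANTCA, at bases 146 to 152, with the first base 105 bases before the start. In Gm20554 the letters ATTGG, which read CCAAT on the other strand, stood at bases 34 to 38. F730043M19Rik had none of the 4 motifs in its window. GC content was 68.0%, 69.7% and 68.7% in this order. Over the 27025 genes with a RefSeq promoter window, 41.1% held the CCAAT box, 15.7% the TATA box, 8.09% the E-box and 8.97% the AP-1 type site. Of the lncRNAs, 141 had a window, and the shares were 45.4%, 12.8%, 11.3% and 7.8% in the same order. These are descriptions of letters in the windows.

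The miRNAs carried by 6 expressed host lncRNAs are shown because the level of a host transcript is the value measured here, while the mature miRNAs themselves were not measured by this library type. Capitals mark the seed, bases 2 to 8. Sequences and positions are those of RefSeq on GRCm38.p6.
miR-22-3p: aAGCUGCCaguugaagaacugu
miR-142a-3p: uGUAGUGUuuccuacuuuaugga
miR-142a-5p: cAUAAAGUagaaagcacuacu
miR-101a-3p: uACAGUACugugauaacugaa
miR-15a-5p: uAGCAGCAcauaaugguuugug
miR-16-5p: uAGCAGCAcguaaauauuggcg
miR-17-5p: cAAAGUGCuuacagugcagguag
miR-20a-5p: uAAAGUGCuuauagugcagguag
miR-18a-5p: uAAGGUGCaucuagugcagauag
miR-19a-3p: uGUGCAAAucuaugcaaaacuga
miR-19b-3p: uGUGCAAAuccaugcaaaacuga
miR-92a-3p: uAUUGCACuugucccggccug
miR-374b-5p: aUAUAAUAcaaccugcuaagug
On the plus strand of chromosome 11 lie chr11:75463772-75463793 (miR-22-3p), carried by Mir22hg, and chr11:87756867-87756887 (miR-142a-5p) and chr11:87756903-87756925 (miR-142a-3p), carried by Mir142hg. E130102H24Rik carries the miRNA at chr4:101346957-101346977 (miR-101a-3p), on the minus strand. Dleu2 carries chr14:61632075-61632096 (miR-15a-5p) and chr14:61631936-61631957 (miR-16-5p), on the minus strand, and these share the seed AGCAGCA. Mir17hg is the host of the miR-17 to miR-92a cluster on the plus strand of chromosome 14, from chr14:115043684-115043706 (miR-17-5p) over chr14:115043867-115043889 (miR-18a-5p), chr14:115044048-115044070 (miR-19a-3p), chr14:115044183-115044205 (miR-20a-5p) and chr14:115044358-115044380 (miR-19b-3p) to chr14:115044476-115044496 (miR-92a-3p). Within it miR-17-5p and miR-20a-5p share the seed AAAGUGC, and miR-19a-3p and miR-19b-3p share GUGCAAA. Ftx carries chrX:103573112-103573133 (miR-374b-5p), on the minus strand.

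More of the expressed lncRNAs were lower than higher in shTrem2. All 300 passed the filter on low counts. A gene is called differentially expressed (DEG) here at an adjusted p under 0.05 and a fold change over 1.5, and 97 of the 300 lncRNAs (32.3%) were DEGs, beside 21.8% of all 13528 genes tested. Of these, 76 lncRNAs (25.3%) were lower, beside 12.4% of all genes, and 21 (7.0%) were higher, beside 9.46% of all genes. Among the 11355 protein-coding genes tested, 21.2% were DEGs, 11.6% were lower and 9.63% higher. The median log2 fold change was -0.22 over the lncRNAs and 0.01 over the protein-coding genes. Without the fold threshold, 180 of the 300 lncRNAs passed, 132 lower and 48 higher, beside 57.4% of all genes and 61.8% of the protein-coding genes. The 3 libraries of one group lay wholly above those of the other for 186 lncRNAs (62.0%), beside 63.8% of all genes and 68.1% of the protein-coding genes, and this held for each of the 97 DEGs. A fall in bulk RNA cannot tell fewer cells with a transcript from less of it per cell.

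**Figure D1:**
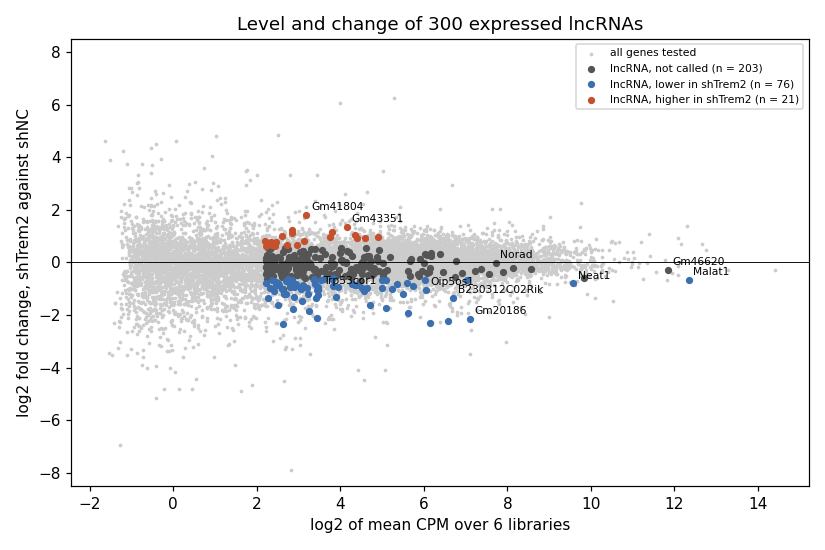
The log2 fold change of shTrem2 against shNC (vertical) is plotted against the log2 mean CPM over 6 libraries (horizontal) for all 13528 genes tested (grey) and the 300 lncRNAs. The 76 blue points lie below 0 at levels from the lowest to Malat1, and the 21 orange points lie at low to middle levels.

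DEGs were spread over the whole range of levels. The counts in this paragraph stand beside 21.8% DEGs and 12.4% lower DEGs over all genes. Ranked by mean count, the first 100 lncRNAs held 31 DEGs (26 lower), the next 100 held 30 (25 lower) and the last 100 held 36 (25 lower). By position in GENCODE M21, an annotation on build GRCm38 matched through Ensembl identifiers, 112 lncRNAs were intergenic and held 38 DEGs, 32 of them lower. Another 85 overlapped a coding gene on the opposite strand and held 27 DEGs, 18 lower. Another 32, called divergent here, overlapped no coding gene and had the nearest coding start within 5 kb on the opposite strand. Of these, 11 were DEGs, 8 of them lower. Whether the 2 starts of such a pair face away from each other was not checked. The 26 that overlapped a coding gene on the same strand held 12 DEGs, 11 of them lower, and here reads of the 2 genes cannot be fully told apart. The 45 lncRNAs not matched in that annotation held 9 DEGs, 7 lower. In the matched set, the longest transcript had a median of 2302 nt over 69 lower lncRNAs, 1591 nt over 19 higher ones and 2268 nt over 167 others, and the median number of exons was 3 in each.

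The 300 lncRNAs together took a smaller part of each shTrem2 library. They held 2.07%, 2.13% and 2.00% of the named counts in shNC and 1.45%, 1.53% and 1.43% in shTrem2. The groups did not overlap, and the difference was -0.597 percentage points (exact two-sided permutation test p = 0.1, the smallest that 3 against 3 libraries allow). Malat1 alone went from 0.644% ± 0.0368 to 0.398% ± 0.0351 (SD, n = 3). Without it the difference was -0.351 percentage points. The 4 most counted lncRNAs, Malat1, Gm46620, Gm42047 and Neat1, held 59.9% of the counts of all 300, and the other 296 went from 0.801% to 0.615% of the libraries.

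**Figure D2:**
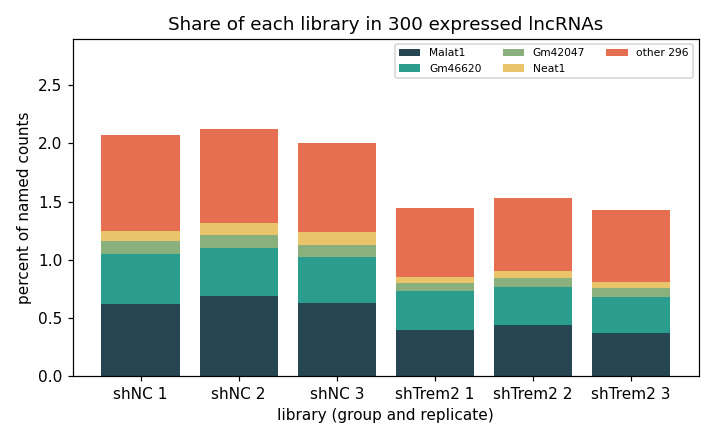
Bars give the percent of named counts held by the 300 lncRNAs in each library, split into Malat1, Gm46620, Gm42047, Neat1 and the other 296. The 3 shNC bars reach 2.00% to 2.13% and the 3 shTrem2 bars 1.43% to 1.53%, and each of the 5 layers is thinner in the shTrem2 mean.

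Malat1 and Neat1, both nuclear lncRNAs, fell. Malat1 is a nuclear speckle transcript. It stood at 6086, 6771 and 6267 CPM in shNC and 4007, 4400.5 and 3697 CPM in shTrem2. Every shTrem2 library was below every shNC library (log2 fold change -0.66 ± 0.06 SE, adjusted p = 1.21e-06). Neat1, the scaffold on which paraspeckles form, stood at 841, 966 and 1097 CPM in shNC and 518, 614 and 546 CPM in shTrem2. Its groups were also apart (log2 fold change -0.79 ± 0.08 SE, adjusted p = 2.6e-06). Counts were summed over the transcripts of a symbol, so which transcript of Neat1 fell cannot be told, and paraspeckles were not measured. Per length, Malat1 had 2252 ± 91.9 FPKM in shNC and 1401 ± 122 FPKM in shTrem2 (SD, n = 3), and Neat1 had 329.5 ± 41.8 FPKM in shNC and 187 ± 16.4 FPKM in shTrem2.

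Other lncRNAs with known nuclear or chromatin roles moved unequally. Of 17 listed in this class, 10 were among the 300, and 4 were lower (beside 12.4% of all genes), Malat1, Neat1, Oip5os1 and Pvt1, and none higher. Oip5os1, also known as Cyrano and carrying a conserved miR-7 site, stood at 85.9, 86.1 and 95.6 CPM in shNC and 40.5, 45.2 and 43.3 CPM in shTrem2. It fell the most of the class (log2 fold change -1.05 ± 0.06 SE, adjusted p = 1.66e-08). Pvt1, the neighbour of Myc, went from 30.9, 29.6 and 22.99 to 14.9, 14.2 and 16.9 CPM (log2 fold change -0.86 ± 0.11 SE, adjusted p = 2.2e-05). Firre, an X-linked organizer of chromosome contacts, had 167 ± 2.52 CPM in shNC and 132 ± 5.65 CPM in shTrem2, a change of -0.33 (adjusted p = 4.27e-05) below the fold threshold. Norad, which binds Pumilio proteins, was at 206, 209 and 217 CPM in shNC and 204, 218 and 208 CPM in shTrem2, and its groups overlapped (log2 fold change -0.01 ± 0.05 SE, adjusted p = 0.93). The imprinting-linked antisense transcripts Kcnq1ot1 and Airn also overlapped between groups, with log2 fold changes of 0.01 ± 0.10 and 0.29 ± 0.17. Airn passed only without shNC replicate 2 (0.51, adjusted p = 0.0173). Ftx, of the X inactivation center, was higher by 0.47 (adjusted p = 0.00372), below the fold threshold, and did not pass on FPKM values (limma, adjusted p = 0.259). Peg13, an imprinted transcript inside Trappc9, was a DEG (1 of 3 imprinted lncRNAs in the set, beside 21.8% of all genes), at 3.23, 2.88 and 3.85 CPM in shNC and 5.58, 5.96 and 5.98 CPM in shTrem2 (log2 fold change 0.81 ± 0.17 SE, adjusted p = 0.00116). On log2(FPKM + 1) its change was 0.39 (limma, adjusted p = 0.0097), under the fold threshold.

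Of 6 lncRNAs listed as p53-linked, 3 were among the 300, Trp53cor1, Neat1 and Pvt1. All 3 were lower (beside 12.4% of all genes and 25.3% of the 300). Tug1, also listed, had a mean count of 2533 but is typed as another biotype, and Lncpint lay below the 300. Trp53cor1, or lincRNA-p21, is transcribed beside Cdkn1a, the cell cycle inhibitor p21. It stood at 14.2, 16.4 and 13.7 CPM in shNC and 7.62, 7.31 and 7.06 CPM in shTrem2. The groups were apart (log2 fold change -1.01 ± 0.12 SE, adjusted p = 5.95e-06). Neat1 and Pvt1 are also counted in the nuclear class above. Of 24 lncRNAs listed for macrophages and immunity, 7 were among the 300, and 3 were lower, Malat1, Neat1 and Pvt1 (beside 12.4% of all genes).

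Some hosts of snoRNAs fell and others did not. Of 21 listed hosts, 12 were among the 300, 6 were lower and none was called higher (beside 12.4% lower over all genes). Snhg20 stood at 30.8, 35.1 and 30.9 CPM in shNC and 11.7, 15.99 and 17.5 CPM in shTrem2. Its fall was the largest of the hosts (log2 fold change -1.10 ± 0.12 SE, adjusted p = 3.54e-06). Snhg7, Epb41l4aos, Snhg6, Snhg12 and Zfas1 followed with log2 fold changes of -0.95, -0.94, -0.89, -0.81 and -0.80 (adjusted p between 1.13e-06 and 5.25e-05). Zfas1, the most abundant of these, went from 62.01, 63.2 and 57.6 to 37.2, 37.3 and 30.8 CPM. Snhg15 changed by -0.35 (adjusted p = 0.00136), below the fold threshold. A further 3 hosts were higher without reaching the fold threshold. Snhg1, which carries 8 annotated snoRNAs, stood at 71.02, 63.6 and 62.7 CPM in shNC and 76.6, 75.6 and 83.4 CPM in shTrem2 (log2 fold change 0.26 ± 0.06 SE, adjusted p = 0.00337). Snhg17 was higher by 0.27 (adjusted p = 0.00123) and Snhg5 by 0.25 (adjusted p = 0.0473). Snhg1 had a log2 fold change of 0.01 on the FPKM scale (limma, adjusted p = 0.913). Snhg5 did not pass the test on p in 7 alternatives, with adjusted p from 0.0617 to 0.291. Snhg3, Snhg5 and Snhg16 overlapped between groups.

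Taking hosts by annotation and not by name gave 15 lncRNAs with a snoRNA or a small Cajal body RNA inside, of which 8 were lower (beside 12.4% of all genes) and none higher. Of the lower ones, 3 carry no host name. Among these, 1110038B12Rik, with Snord52 inside, stood at 68.7, 72.2 and 67.7 CPM in shNC and 35.4, 37.5 and 38.3 CPM in shTrem2 (log2 fold change -0.91 ± 0.06 SE, adjusted p = 2.88e-08). 2410006H16Rik, with Snord49a, Snord49b and Snord65 inside, went from 79.03, 79.99 and 81.1 to 50.6, 54.6 and 46.4 CPM (log2 fold change -0.66 ± 0.06 SE, adjusted p = 1.04e-06). 2900076A07Rik had 10.8 ± 0.960 CPM in shNC and 5.68 ± 0.479 CPM in shTrem2 (log2 fold change -0.92 ± 0.13 SE, adjusted p = 4.87e-05). Gm15832, which overlaps Rnf149 on the same strand, was at -0.22 and did not pass the test (adjusted p = 0.194).

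**Figure D3:**
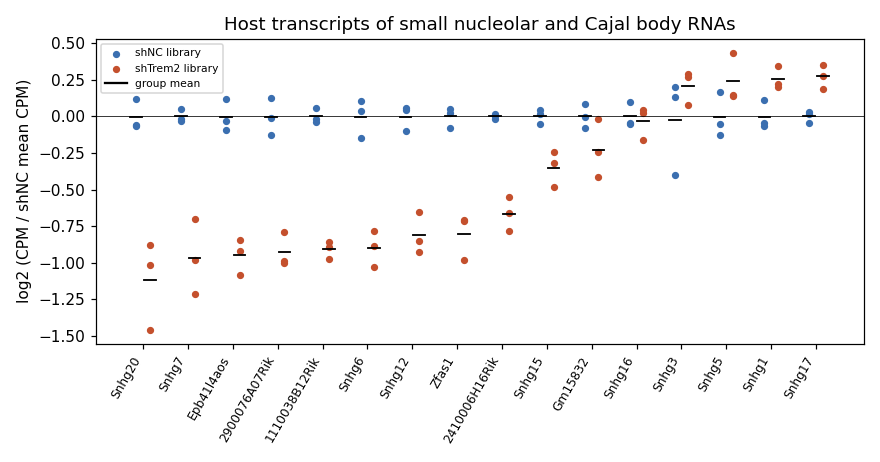
Each point is 1 library of 1 host transcript, as the log2 ratio of its CPM to the shNC mean, for the 16 lncRNAs that are snoRNA hosts by name or annotation, ordered by log2 fold change. In the 9 transcripts on the left all 3 shTrem2 points lie below the shNC points, and in the 4 on the right the shTrem2 mean lies above the shNC mean.

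None of the 6 listed miRNA hosts among the 300 was a DEG, of 20 listed (beside 21.8% of all genes), though 3 of the 6 were DEGs in some of the alternative fits given here. By annotation 12 lncRNAs had a miRNA gene inside, and 4 of these (33.3%) were DEGs, beside 21.8% of all genes and 32.3% of the 300. Snhg20 and 2900076A07Rik are among the 4 and were also counted among the lower hosts above. Mir1839, the small RNA inside 2900076A07Rik, is typed both as a miRNA and as a small Cajal body RNA. Mir22hg had 10.02 ± 1.73 CPM in shNC and 7.10 ± 0.0886 CPM in shTrem2. Mir142hg, of the blood cell miRNA miR-142, stood at 15.97, 18.1 and 18.5 CPM in shNC and 10.8, 14.9 and 11.8 CPM in shTrem2. Both passed the test on p alone with changes of -0.50 (adjusted p = 0.00824) and -0.49 (adjusted p = 0.00377). Mir22hg overlaps a coding gene on the same strand, and it did not pass on FPKM values (limma, adjusted p = 0.119), while without shNC replicate 1 it was a DEG (-0.63, adjusted p = 0.00177). Mir142hg was a DEG without shTrem2 replicate 2 (-0.63, adjusted p = 0.00048) and on FPKM values (limma, -0.98 and -1.06 with pseudocounts of 1 and 0.1, adjusted p = 0.00857 and 0.00773). Dleu2, with the pair of miRNAs of seed AGCAGCA, went the other way, from 14.1, 16.9 and 17.5 to 18.6, 20.01 and 24.7 CPM (log2 fold change 0.38 ± 0.12 SE, adjusted p = 0.0129). It was a DEG on FPKM values (limma, 0.77 and 0.86 with pseudocounts of 1 and 0.1, adjusted p = 0.00413 and 0.00422). It did not pass without shNC replicate 1, where the change was 0.29 (adjusted p = 0.0712), and without shTrem2 replicate 3, where it was 0.24 (adjusted p = 0.0688). Mir17hg and Mir99ahg overlapped between groups, at 0.21 ± 0.13 and 0.05 ± 0.07. Mir17hg passed the test only without shTrem2 replicate 1 (0.35, adjusted p = 0.0231). E130102H24Rik, the host of miR-101a, which was named after its values were seen, had 10.7 ± 1.40 CPM in shNC and 7.14 ± 1.98 CPM in shTrem2 (log2 fold change -0.58 ± 0.18 SE, adjusted p = 0.0125).

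Proteins that act on these transcripts were read from the same table. Of 15 paraspeckle proteins, 3 were higher (beside 9.46% of all genes) and none lower, while the count of Neat1, summed over its transcripts, was lower. Sfpq, one of the core paraspeckle proteins, went from 214 ± 24.6 to 379 ± 23.7 CPM, log2 fold change 0.82, adjusted p = 4.32e-07. Hnrnpm and Dazap1 were higher by 0.71 and 0.59. The core proteins Nono and Pspc1 were not called, at 0.25 and -0.08. Among 10 genes that process or load miRNAs, Dgcr8, the partner of Drosha, went from 33.8 ± 4.16 to 73.8 ± 4.55 CPM, log2 fold change 1.12, adjusted p = 8.16e-08. Xpo5, which exports precursors from the nucleus, was higher by 0.80. Ago2, the slicing Argonaute, went from 492 ± 31.7 to 262 ± 3.74 CPM, log2 fold change -0.91, adjusted p = 7.75e-09, and Ago3 was also lower, at -0.87. The other 6 were not called, so that 4 of 10 were DEGs beside 21.8% of all genes. Of 19 genes of nonsense-mediated decay, Magoh, a core protein of the exon junction complex, was higher by 0.69 and Smg1, the kinase of Upf1, was lower, at -0.67, and the other 17 were not called. Of 19 tested genes of the nuclear RNA exosome and its cofactors, 1 was a DEG, Zfc3h1, at -0.70. DEGs thus made up 10.5% of the decay genes and 5.26% of the exosome genes, beside 21.8% of all genes. The part of these proteins in the levels of the lncRNAs was not tested.

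The largest falls were found in lncRNAs with little functional description. Gm55330 stood at 10.8, 11.4 and 8.58 CPM in shNC and 1.30, 2.61 and 2.11 CPM in shTrem2 (log2 fold change -2.35 ± 0.21 SE, adjusted p = 7.27e-07). Gm56906 went from 133, 128 and 94.5 to 22.7, 26.96 and 21.5 CPM and Gm56730 from 177, 164 and 133 to 35.8, 36.2 and 28.3 CPM. Gm20186 went from 253, 241 and 177 to 51.5, 56.9 and 42.5 CPM (log2 fold change -2.15 ± 0.12 SE, adjusted p = 8.38e-09). In Gm56906, Gm56730, Gm20186 and Gm56555 the same library, shNC replicate 3, was the lowest of the controls, and shTrem2 was still below it. These 4 and Gm55330 all carry the same orthologous group in the deposited protein-similarity annotation. The group is not particular to large falls, as D430020J02Rik, which was higher, and Gm32856, not called at -0.12, also carry it. Reads that fit more than 1 gene of the group were assigned by the authors' software. The values of these genes are uncertain in that respect and may not be independent.

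F730043M19Rik stood at 53.3, 53.03 and 52.4 CPM in shNC and 14.8, 16.3 and 16.3 CPM in shTrem2, with the smallest adjusted p of all 300 (log2 fold change -1.74 ± 0.07 SE, adjusted p = 3.77e-10). Gm20554 was as even within groups, at 40.01, 39.8 and 39.8 CPM in shNC and 12.99, 13.1 and 12.4 CPM in shTrem2 (log2 fold change -1.63 ± 0.07 SE, adjusted p = 7.94e-10). B230312C02Rik, one of the more abundant, stood at 155, 153 and 142 CPM in shNC and 59.6, 65.4 and 52.3 CPM in shTrem2 (log2 fold change -1.34 ± 0.07 SE, adjusted p = 4.61e-09). In each of these the groups were far apart relative to the spread within them. 4930471E19Rik, Gm56555, BC048559, Gm15496, 1300002E11Rik, Gm14461, 9330175E14Rik and Gm12606 make up the rest of the 15 largest falls, with log2 fold changes from -2.13 to -1.34. 9330175E14Rik did not pass the test on FPKM values (limma, change -0.32 on log2(FPKM + 1), adjusted p = 0.277).

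Fewer lncRNAs rose, and by less. Gm41804 stood at 3.79, 3.05 and 5.28 CPM in shNC and 13.04, 13.6 and 15.97 CPM in shTrem2. Gm43351 stood at 9.51, 7.99 and 12.6 CPM in shNC and 27.3, 26.8 and 22.5 CPM in shTrem2. These were the largest rises (1.81 ± 0.17 and 1.35 ± 0.14 SE, adjusted p = 1.07e-06 and 2.25e-06). D430020J02Rik stood at 4.29, 4.05 and 4.40 CPM in shNC and 9.86, 8.88 and 11.3 CPM in shTrem2 (log2 fold change 1.24 ± 0.15 SE, adjusted p = 7.49e-06). 9930014A18Rik went from 9.32, 8.04 and 8.52 to 18.3, 18.02 and 20.9 CPM. All shTrem2 libraries were above all shNC libraries for each. Gm9732, Ppp1ccb, Gm45606, Gm20559, Gm20234, 2210408F21Rik, Hmga2-ps1, 8030453O22Rik, Peg13, Gm10382 and 1700086O06Rik complete the 15 largest rises, from 1.13 down to 0.78. Ppp1ccb and Hmga2-ps1 are named as copies of coding genes, and their reads may be split with those genes. 1700086O06Rik lost its call on FPKM values (limma, change 0.51 on log2(FPKM + 1), adjusted p = 0.176). Without shTrem2 replicate 3, Gm10382 changed by 0.56 (adjusted p = 0.0345), under the fold threshold.

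**Figure D4:**
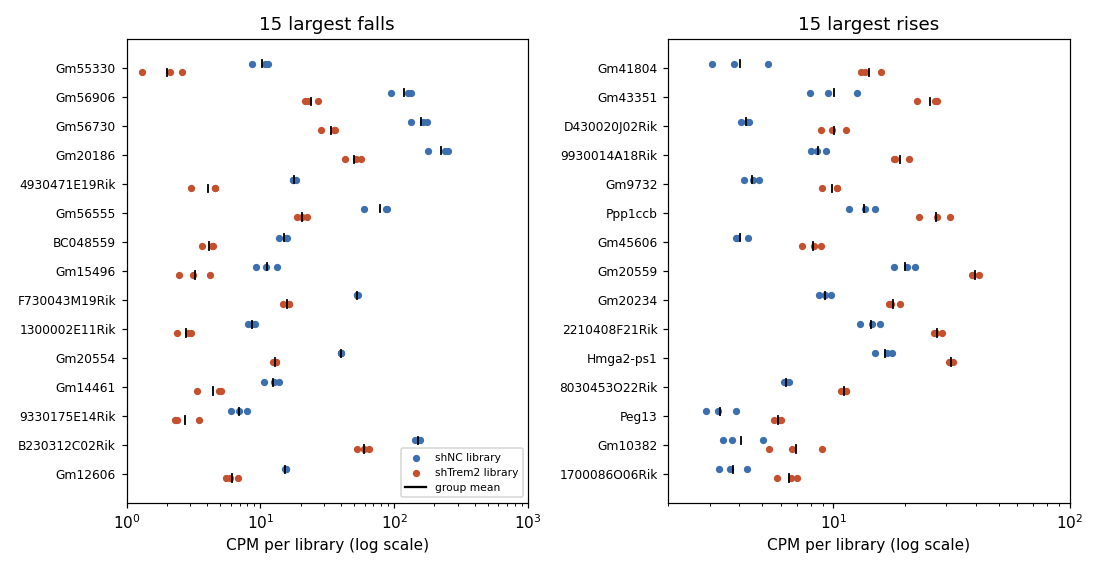
Each point is the CPM of 1 library on a log axis, with the group mean as a bar, for the 15 largest falls (left) and 15 largest rises (right). No lncRNA shown has overlapping groups, and the falls span a wider range of levels than the rises.

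Beside Malat1, the highest levels per length were those of Gm46620 and Gm15501, both similar to proteins of other loci. Gm46620, with 2627 ± 119.6 FPKM in shNC and 2097 ± 57.98 FPKM in shTrem2 (SD, n = 3), is annotated by similarity to the envelope polyprotein of an endogenous murine leukaemia provirus. Its count went from 4218, 4091 and 3894 to 3399.6, 3371 and 3199 CPM (log2 fold change -0.29 ± 0.05 SE, adjusted p = 0.000167), below the fold threshold. Gm15501, annotated by similarity to ribosomal protein S8, had 1956 ± 70.1 FPKM in shNC and 1616 ± 76.5 FPKM in shTrem2 and changed by -0.22 (adjusted p = 0.00623). Gm42047 had 539 ± 36.6 FPKM in shNC and 357 ± 24.8 FPKM in shTrem2. Its log2 fold change of -0.58 (adjusted p = 1.1e-06) lay just under the fold threshold, with 1158, 1124 and 1026 CPM in shNC and 695, 734 and 777 CPM in shTrem2 and no overlap, and it lay past that threshold in 9 of the alternative fits. Erdr1y, of the sex chromosome region shared by X and Y, was lower (log2 fold change -0.67 ± 0.08 SE, adjusted p = 1e-05). Erdr1x, the symbol placed on X and named after its values were seen, was also lower, at -0.99. Reads may be split between Erdr1y and Erdr1x. Rpl37rt, a retrocopy of a ribosomal protein gene, did not pass (log2 fold change -0.43 ± 0.18 SE, adjusted p = 0.0583), but it did with 4 other settings, and without shTrem2 replicate 3 it was a DEG (-0.68, adjusted p = 0.00407). 2610005L07Rik changed by -0.26 (adjusted p = 0.00293), and by -0.25 on FPKM values (limma, adjusted p = 0.0539 on log2(FPKM + 1)).

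Words for retroelement proteins in the deposited similarity annotation marked 39 of the 300 lncRNAs. This grouping was made after the values were seen. Of the 39, 12 (30.8%) were DEGs, 9 lower and 3 higher, beside 85 of the other 261 (32.6%). The lower ones include Gm55330, Gm56730, Gm56555 and BC048559, and the higher ones are Gm41804, Gm20559 and D430020J02Rik. Among the other genes tested with such words, 28 of 233 were DEGs. The 39 held 0.647% ± 0.0333 of named counts in shNC and 0.489% ± 0.00707 in shTrem2 (SD, n = 3), and the other 261 held 1.42% ± 0.0462 and 0.980% ± 0.0460. Both parts were thus smaller in shTrem2. Which genomic copy the reads came from cannot be told from gene counts.

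The change of a lncRNA and that of its nearest coding gene were compared for 180 of the 255 lncRNAs matched in GENCODE M21, those whose neighbour was tested. Across these pairs Pearson's r of the log2 fold changes was 0.126, beside 0.139 for 7650 pairings of a coding gene with its nearest coding gene. Coding genes that are nearest to each other entered these pairings once from each side. By the position class of the lncRNA, r was 0.404 for 29 divergent, 0.264 for 63 antisense, 0.00390 for 68 intergenic and -0.108 for 20 same-strand lncRNAs. The antisense and same-strand classes rest on any overlapped coding gene, while the pair is made by the nearest start. These can be different genes, as for Mir99ahg, classed as antisense but paired with Usp25 on its own strand. The pairs share the same 6 libraries and are not independent replicates. Of 61 DEGs with a tested neighbour, 15 (24.6%) had a neighbour that was a DEG, beside 23.1% for the coding pairs. In 13 of the 15 the direction was the same, and for coding pairs it was the same in 254 and opposite in 105.

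Of 10 divergent DEGs with a tested neighbour, 3 had a neighbour that was a DEG, in the same direction, and 7 did not. Among the 7 that start within 300 nt of it, the neighbour was a DEG for 2, D430020J02Rik and Gm20554, and was not called for 5, which were F730043M19Rik, Map2k3os, 2500002B13Rik, Eldr and 2810030D12Rik. The last 3 are named after their values were seen. Ncapg2, a condensin II subunit whose start lies 192 nt from that of D430020J02Rik, had 62.8 ± 1.86 CPM in shNC and 129 ± 7.63 CPM in shTrem2 (log2 fold change 1.04, adjusted p = 5.74e-09), and both were higher. Irx2, a homeobox factor 256 nt from Gm20554, had 67.8 ± 1.03 CPM in shNC and 33.1 ± 3.01 CPM in shTrem2 (log2 fold change -1.04, adjusted p = 3.11e-08), and both were lower. Atxn7l1 starts 96 nt from F730043M19Rik and had 49.2 ± 2.16 CPM in shNC and 47.5 ± 1.85 CPM in shTrem2. Its log2 fold change of -0.05, adjusted p = 0.5, stood beside -1.74 for the lncRNA. Gm20186 started 372 nt from Lsm8, which binds U6 RNA, and Lsm8 was higher by 0.36, adjusted p = 0.00103, below the fold threshold, beside -2.15 for the lncRNA.

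Of the 30 largest changes, 19 had a tested neighbour, and 6 of these neighbours were DEGs, 5 in the direction of the lncRNA. At longer distances, Cdkn1a, whose start lies 11797 nt from Trp53cor1, had 429.6 ± 28.9 CPM in shNC and 168 ± 8.39 CPM in shTrem2 (log2 fold change -1.36, adjusted p = 6.3e-10). Samd9l, an interferon-induced gene near Gm20559, was higher by 1.14, adjusted p = 1.74e-08. Slfn2, of the Schlafen family and near Gm20234, was higher by 0.84, adjusted p = 1.7e-08. Nlrc5, a regulator of MHC class I genes that starts 747 nt from 9330175E14Rik, changed by -0.79, adjusted p = 3.27e-08. In these 4 pairs the lncRNA and its neighbour moved in the same direction. Oip5os1 and Nusap1, a spindle protein gene, moved in opposite directions, with Nusap1 higher by 1.00, adjusted p = 2.32e-08. Myc, beside Pvt1, was at 0.43, adjusted p = 0.104, and so did not pass. The opposite-strand lncRNAs Map2k3os and Brip1os, named after their values were seen, had -1.09 (adjusted p = 0.000205) beside 0.24 for Map2k3, and 0.35 (adjusted p = 0.000358) beside 0.72 for Brip1. Oip5, from which Oip5os1 takes its name, was higher by 0.60, adjusted p = 0.000158, opposite to Oip5os1. It was also named after its values were seen. Further lncRNAs of the set with names of this form are not given.

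**Figure D5:**
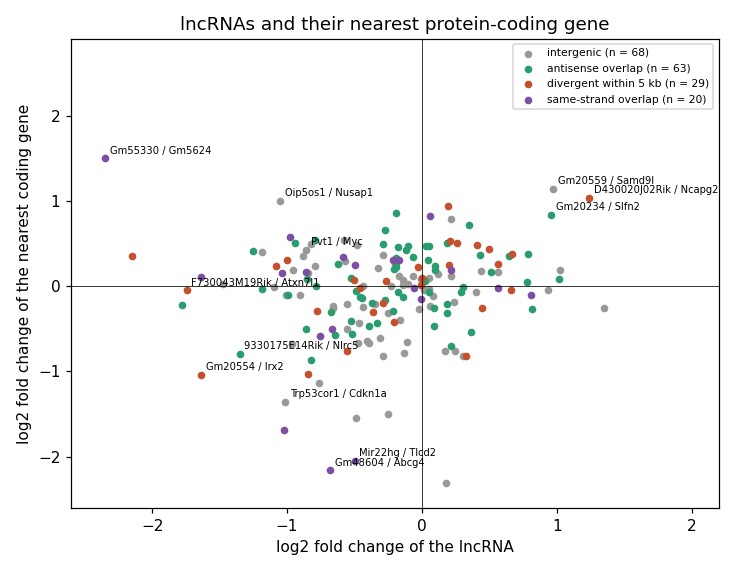
The log2 fold change of each lncRNA (horizontal) is plotted against that of its nearest coding gene (vertical) for 180 pairs, coloured by position. Named pairs at the upper right and lower left have log2 fold changes of the same sign, but Atxn7l1, beside F730043M19Rik, was at -0.05 and not called. Oip5os1 with Nusap1, Gm55330 with Gm5624 and Pvt1 with Myc lie in the upper left, where the lncRNA is lower. Of these coding genes, Myc did not pass the test, and Gm5624 had only 0.588 CPM in shNC and 1.68 CPM in shTrem2.

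The rule's limit fell between lncRNAs of nearly the same level. The last ones inside were A930024E05Rik, Gm36445 and 1700085D22Rik, with mean counts of 85.2, 85.0 and 85.0, and the first outside were Gm48799, Jpx and AW011738, with 84.4, 83.7 and 83.7. Of the 76 lncRNA symbols in the fixed lists, 28 were among the 300, 30 were lncRNAs below them, 9 were typed as another biotype in the deposited table, and 9 symbols were not in the table used here. For 20 of the 300 the symbol is also that of a gene of another biotype, most often a transcribed pseudogene, and 5 of these were DEGs.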

How the data were processed

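RNA was poly(A)-selected, made into stranded libraries and sequenced as paired reads. After trimming (fastp), the authors ran HISAT2 for alignment and StringTie for assembly. The submitters' processing notes name build GRCm39. The counting tool and annotation release are not given in the sources used here. The authors deposited estimated counts per transcript, not scaled for depth or length, of which 79.3% of nonzero values were not whole, and FPKM values per gene, scaled for depth and length, with biotypes and protein-similarity text. Columns of group means were not used.

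Estimated counts were summed per symbol and rounded. Rows without a symbol held 0.908% to 1.12% of counts and were left out. Genes were tested with edgeR 4.0.16 (TMM, filterByExpr, glmQLFit and glmQLFTest, R 4.3.3) over 13528 genes without covariates, and p-values were adjusted by Benjamini-Hochberg over all of them. DEGs had an adjusted p under 0.05 and a fold change over 1.5. The script was tested on simulated data. CPM use TMM-scaled library sizes. At 0 counts, up to 3 remain possible, or 0.153 to 0.189 CPM, for counting error only. All pairs of replicates differed beyond sampling noise.

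GENCODE M21 and RefSeq are on GRCm38, so positions were joined by identifier or symbol (255 and 141 of 300 matched) and no coordinates were converted. Named lncRNAs are the 15 largest rises and falls among DEGs whose groups did not overlap, the 10 highest by FPKM, those in the fixed lists, and the nearest coding genes of the first. 1 listed gene is not reported here. Members and lists were chosen with earlier results of these data known. Alternatives were DESeq2 1.42.0, limma 3.58.1 on log2(FPKM + 1) and log2(FPKM + 0.1), other scalings, filters and thresholds, a replicate block and leaving out each library. Removing lncRNAs with a shared symbol or uncertain overlap was added after seeing the data. Same-numbered libraries correlated by 0.00618, -0.00441 and 0.00657 in their deviations from the group means, so the numbers were not taken to pair them.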

Additional observations from a re-analysis of the deposited data

How the results depend on the processing

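The 97 lncRNA DEGs were 98 with RLE size factors, 104 with library size only, 101 without a filter beyond 1 count, 100 with at least 10 counts in every library (299 of the 300 lncRNAs left), 99 with DESeq2, and 86 and 99 with limma on log2(FPKM + 1) and log2(FPKM + 0.1). Leaving out each library gave 96 to 105. With the replicate number as a block there were 100, of which 96 were shared with the fit without it. Among the named lncRNAs the block moved only Rpl37rt past the threshold on adjusted p (-0.45, edgeR adjusted p = 0.0494). Rpl37rt stayed under the fold threshold there and was not a DEG. The numbers were not found to pair the libraries. Without the fold threshold there were 180, with a fold over 2 there were 39, and 42 of the 134 lncRNAs with a mean count of 200 or more were DEGs. Of those 42, 35 were lower. After seeing the data, lncRNAs whose symbol is shared with another biotype were left out (92 DEGs of 280), and those that overlap a coding gene on the same strand or were not matched (76 of 229). In each of these the lower DEGs outnumbered the higher. The share of library counts differed by -0.588 percentage points with all rows in the denominator, by -0.351 without Malat1, and by -0.63 to -0.566 when each library was left out. For named lncRNAs, 910 values were recomputed. On adjusted p alone, 883 kept their side of the threshold, 21 lost it and 6 gained it. With the fold threshold as well, 888 kept their status as DEG or not, 6 lost it (1700086O06Rik, 9330175E14Rik, Gm10382 and Peg13) and 16 gained it (Dleu2, Gm42047, Mir142hg, Mir22hg and Rpl37rt). The sign changed in 12 values, of Kcnq1ot1, Mir99ahg, Norad and Snhg16, none of which passed the test in either fit. Depth limits lncRNAs near the lower end of the set, where the mean count was 85.0.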

Other observations

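Below the level of the 300, another 1039 lncRNA symbols were tested, and 268 of them (25.8%) were DEGs by edgeR, 186 lower and 82 higher, beside 21.8% of all genes. Fendrr, a developmental lncRNA divergent to Foxf1, stood at 2.80, 3.11 and 2.03 CPM in shNC and was at or below the level of 3 counts in every shTrem2 library. A430093F15Rik stood at 3.54, 4.38 and 2.91 CPM in shNC and 0.522, 0.209 and 0.155 CPM in shTrem2. Gm48796 was higher, with 0.249, 0.277 and 0.385 CPM in shNC and 3.03, 1.78 and 2.88 CPM in shTrem2. These lncRNAs were chosen after their values were seen, from those with the largest changes, and folds are not given because one group lies close to the limit of detection.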
